A study of Rattus norvegicus with 48 samples.

Results

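Resting livers of rats given AM21, an antisense oligonucleotide with locked nucleic acids directed at miR-21, were compared with resting livers of control rats. Animals were chosen by their labels alone, as those collected at 0 h, before 70% partial hepatectomy, in 1 of 3 treatments. From the 48 samples of the series this gave 18 rats, of which 6 had received AM21 and 12 were controls. All were male Sprague-Dawley rats, 8 to 14 weeks of age, pair-fed a Lieber-DeCarli liquid diet for 6 to 8 weeks. In the EtOH diet, ethanol supplied 36% of calories, and in the CHO diet carbohydrate took its place. Each diet held 3 untreated rats, 3 rats injected with saline and 3 rats injected with AM21 at 7.5 mg/kg, 72 h before surgery. RNA came from whole frozen liver, so each value is a mixture of hepatocytes and all other liver cells. The NanoString nCounter assay counts barcoded probes, 1 kind for each miRNA, and the authors deposited log2 CPM (the log2 of counts scaled to a common library size) for 143 miRNAs. Total counts at 0 h were 58168 to 240355 per animal, with a median of 137613.

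A miRNA guides a silencing complex to messenger RNAs that pair with its seed, the bases near its 5′ end, and an antisense oligonucleotide binds the mature miRNA and keeps it from its targets. miR-21 is abundant in many tissues and is known in the liver for its rise during regeneration and fibrosis. An oligonucleotide injected into the animal can reach hepatocytes as well as the stellate, endothelial and immune cells of the liver.

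Some libraries stood apart. Replicates 1 and 2 of the saline-injected EtOH rats had miR-21 levels of 11.12 and 9.65, while the other 10 controls were at 12.97 to 15.00. These 2 animals had 448 and 120 miR-21 counts in libraries of 185564 and 155731 counts. Their miR-340-5p levels of 8.43 and 8.66 lay within the range of the other controls. Whether the labels and injections of these 2 animals were checked is not known. The lowest total count, 58168, belonged to replicate 2 of the untreated CHO rats. AM21-treated rats had 105799 to 240355 counts, untreated rats 58168 to 205241 and saline-injected rats 107395 to 194947. Total counts were 1.26-fold higher with AM21 than in controls, a difference that did not pass a two-sided exact permutation test of labels within each diet (p = 0.129). Within each diet and replicate number the AM21-treated rat was above the mean of its 2 controls in 6 of 6 sets, by 0.15 to 0.55 on the log2 scale, and labels permuted within these sets gave an exact p of 0.0631, an alternative chosen after the data were seen. miR-122, the main miRNA of hepatocytes, made up between 42.1% and 61.9% of each library.

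Besides the target of AM21, 2 other miRNAs were called in resting liver, both lower. miR-21 was 73.0-fold lower in the 6 AM21-treated rats than in the 12 controls. miR-340-5p was 2.77-fold lower and miR-199a-5p 1.49-fold lower. These 3 were the miRNAs that limma called at an adjusted p under 0.05, 2.1% of the 143 tested, and 0 miRNAs were called higher. Without adjustment, 12 miRNAs (8.39%) had a p under 0.05, 6 of them higher and 6 lower. Over all 143 miRNAs the median difference was 0.035 on the log2 scale, with 78 above 0 and 65 below.

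miR-21 was among the most abundant miRNAs of untreated liver and among the least abundant after AM21. Its level was 7.63, 7.34 and 7.33 in the CHO rats given AM21 and 6.65, 7.76 and 7.31 in the EtOH rats given AM21, from 17 to 32 counts each. Untreated CHO rats had 14.66, 13.46 and 14.65, and untreated EtOH rats 14.99, 14.16 and 15.00. Saline-injected CHO rats had 12.97, 13.93 and 13.64, and saline-injected EtOH rats 11.12, 9.65 and 14.10. Every AM21-treated animal lay below every control, and the nearest control was the saline-injected EtOH rat at 9.65. The groups did not overlap in this way for miR-21 only, which is 0.699% of the 143 miRNAs.

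Ranked from the most abundant of the 143 miRNAs, miR-21 held places 3 to 12 in untreated rats, 6 to 62 in saline-injected rats and 131 to 143 in AM21-treated rats. Its median share of all counts was 3.14% in untreated, 1.15% in saline-injected and 0.0168% in AM21-treated rats. The remaining counts were thus near those of the least abundant miRNAs of the table, and in replicate 1 of the EtOH rats given AM21 miR-21, at 23 counts, was the lowest of all. No background was subtracted or could be measured from the table, so how much of these counts is miR-21 is not known, and 73.0-fold is a ratio of measured values only. Counts alone cannot tell miR-21 that was gone from miR-21 that the probe did not detect. On the log2 scale miR-21 fell by 6.19, from 13.53 ± 1.62 (SD, n = 12) to 7.34 ± 0.38 (SD, n = 6). The standard error was 0.59, the 95% confidence interval -7.42 to -4.96 and the limma adjusted p 1.6e-07. Left out together, the 2 low saline-injected EtOH rats changed the difference to -6.85, with miR-21, miR-340-5p and miR-199a-5p called as before. This omission was chosen after the data were seen.

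**Figure D1:**
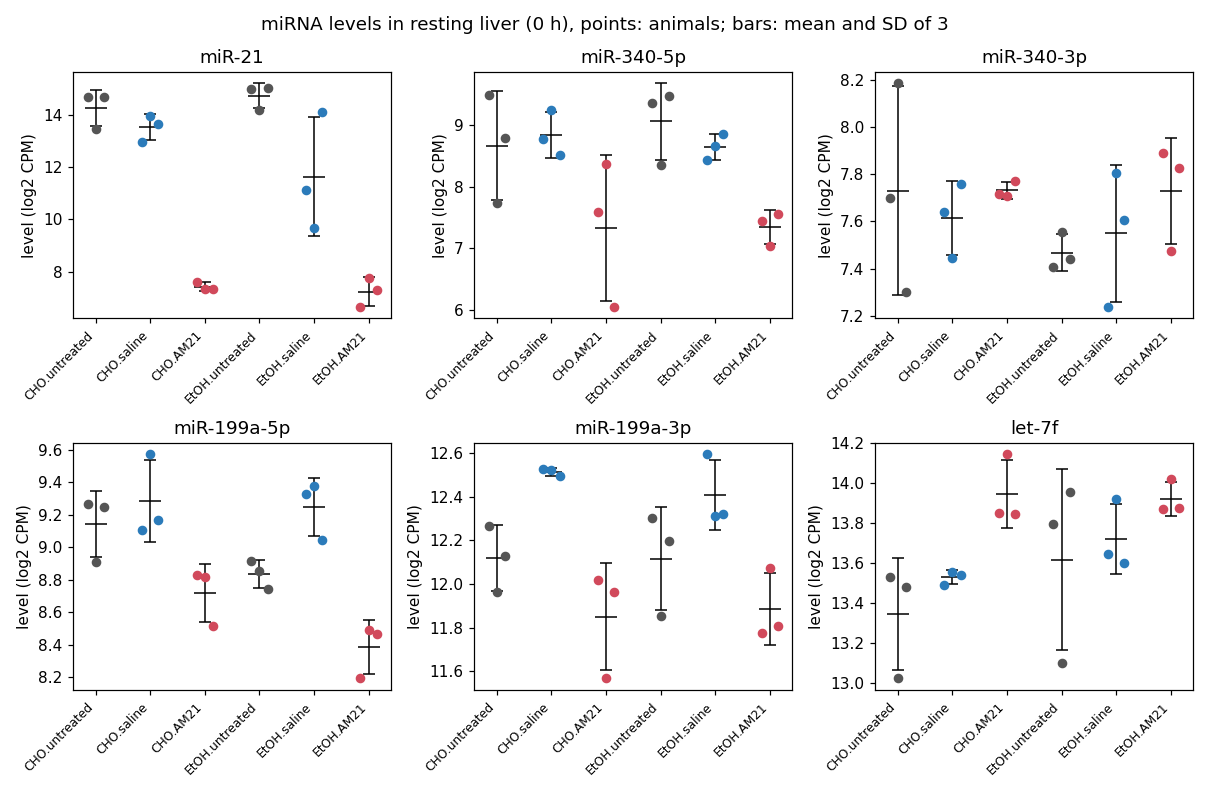
Level in log2 CPM of 6 miRNAs in the 18 rats at 0 h, by diet and treatment. Points are animals (grey untreated, blue saline, red AM21), and the bars give the mean and SD of 3 animals. The 6 AM21-treated rats sit between 6.65 and 7.76 for miR-21, below all 12 controls, and the AM21 and control animals of the other 5 miRNAs overlap.

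miR-340-5p comes from a hairpin in an intron of the gene Rnf130, and its other arm, miR-340-3p, was measured by a separate probe. The 5p arm was at 7.58, 8.37 and 6.04 in CHO rats given AM21 and at 7.43, 7.03 and 7.56 in EtOH rats given AM21. Untreated rats had 9.48, 7.73 and 8.78 on the CHO diet and 9.36, 8.34 and 9.48 on the EtOH diet. Saline-injected rats had 8.77, 9.24 and 8.50 on the CHO diet and 8.43, 8.66 and 8.85 on the EtOH diet. Of the 6 AM21-treated rats, 5 lay below all 12 controls. The exception was CHO replicate 2 at 8.37, which lay above untreated CHO replicate 2 and untreated EtOH replicate 2. Counts behind these levels were low, with a median of 32.5 in AM21-treated rats and 67 in controls, so counting error limits the precision of each one. In AM21-treated CHO replicate 3 and EtOH replicate 2 the counts of 12 and 16 were the lowest of their libraries, so with no background measured the 2.77-fold is also a ratio of measured values only.

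miR-340-5p fell by 1.47 on the log2 scale (standard error 0.28, 95% confidence interval -2.05 to -0.88, limma adjusted p = 0.00262). Its other arm, miR-340-3p, had 7.47, 7.74 and 7.89 as lowest, median and highest level in AM21-treated rats, and 7.24, 7.58 and 8.19 in controls. Of the 12 controls, 6 lay within the AM21-treated range of this arm, 5 below and 1 above, and the difference was 0.14 (adjusted p = 0.756). In livers taken 24 h after hepatectomy, this arm was at -0.32 (adjusted p = 0.243), and the change between the times was -0.46 (adjusted p = 0.741). The arms share 1 precursor and 1 library in each animal, so the 5p level minus the 3p level was compared as well. That arm difference was -1.73 to 0.66 in AM21-treated rats (median -0.36) and -0.45 to 2.04 in controls (median 1.22). All but replicate 2 of the CHO rats given AM21 were at -0.14 or below, and all controls but untreated CHO replicate 2 were at 0.75 or above. The mean arm difference was 1.61 lower with AM21 than in controls (-1.61, two-sided exact permutation p = 0.000709, where the smallest possible p was 0.000142). The 3p arm had 16 to 55 counts, and in control libraries such as untreated CHO replicate 3 (23 beside a lowest count of 21) it was near the floor. Without a measured background, the arm difference is therefore a ratio of measured values only, and it does not show that the 3p arm was unchanged.

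The third called miRNA, miR-199a-5p, belongs to a hairpin whose arms are enriched in mesenchymal cells, among them the hepatic stellate cells. Its level was 8.83, 8.82 and 8.51 in CHO rats given AM21 and 8.19, 8.49 and 8.47 in EtOH rats given AM21. Untreated rats had 9.27, 8.91 and 9.25 on the CHO diet and 8.91, 8.85 and 8.74 on the EtOH diet. Saline-injected rats had 9.11, 9.57 and 9.17 on the CHO diet and 9.32, 9.38 and 9.05 on the EtOH diet. Of the 12 controls, 11 lay above all 6 AM21-treated rats, and the remaining one, untreated EtOH replicate 3, lay between them. miR-199a-5p fell by 0.57 (standard error 0.12, 95% confidence interval -0.83 to -0.32, limma adjusted p = 0.00556). In these bulk samples, fewer cells of a type and less RNA per cell cannot be told apart.

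Its sister arm miR-199a-3p was more abundant, at 11.57, 11.89 and 12.07 (lowest, median and highest) in AM21-treated rats. Untreated rats had 11.85, 12.16 and 12.30, and saline-injected rats 12.31, 12.51 and 12.59. AM21-treated rats lay below all saline-injected rats and overlapped with the untreated ones. The difference from pooled controls was -0.42 (standard error 0.12, adjusted p = 0.0917) and did not pass. Left out singly, untreated CHO replicate 2 and untreated EtOH replicate 2, the 2 smallest libraries of the 18, each brought miR-199a-3p under the threshold (-0.45 and -0.46), and adjusted p over all 28 alternatives was 0.0112 to 0.316. The 5p minus 3p level of miR-199a differed between AM21 and control by -0.15 (two-sided exact permutation p = 0.205). Without CHO replicate 2 of the AM21-treated rats this arm difference was -0.25 (exact permutation p = 0.0353), within a range of p from 0.0353 to 0.564 over the 18 single omissions.

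A list of 5 mesenchymal miRNAs holds both arms of miR-199a and 3 others, of which miR-214 was not in the table. The 4 measured were all below 0, with a median of -0.31 beside 0.035 for all miRNAs, and 1 was called, miR-199a-5p. All 4 were also below 0 within numbers 1, 2 and 3, with medians of -0.37, -0.43 and -0.25. Apart from the 2 arms, the members measured were miR-145 and miR-143, and limma called neither (unadjusted p = 0.0615 and 0.403). The more abundant was miR-145, a miRNA of smooth muscle and other contractile cells, at 13.35 to 13.87 in AM21-treated rats and 13.54 to 14.13 in controls, with a difference of -0.21 (adjusted p = 0.525). The difference of miR-143, which shares a transcript with miR-145, was -0.11 (adjusted p = 0.820). At 24 h after hepatectomy the 2 were at 0.040 and 0.20.

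Summed over these 2 and the 2 arms of miR-199a, the level in CPM was 19929, 14214 and 19110 in CHO rats given AM21 and 18043, 17491 and 16481 in EtOH rats given AM21. Untreated rats had 22276, 21885 and 21319 on the CHO diet and 20088.5, 20849 and 17403 on the EtOH diet. Saline-injected rats had 21167, 24946 and 21107.5 on the CHO diet and 21949, 19961 and 19654 on the EtOH diet. miR-145 alone made up 67.4% to 78.9% of this sum in each rat, so the sum mostly repeats its level, which overlapped between the groups. None of the 4 was at 0 counts in any animal. The part of these mesenchymal miRNAs in the result for miR-199a-5p was not tested.

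The labels number the animals of each group from 1 to 3, and each number holds 2 AM21-treated rats and 4 controls at 0 h without saying what the number stands for. Within numbers 1, 2 and 3, the difference of miR-21 was -6.29, -5.25 and -7.03. For miR-340-5p it was -1.50, -0.80 and -2.11. For miR-199a-5p it was -0.64, -0.52 and -0.56. All 3 miRNAs were thus lower with AM21 within every number, and limma with the number as a block also called 3 miRNAs, the same 3.

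Mature sequences show whether the lowered miRNAs resemble miR-21. RefSeq GRCr8 gave a mature sequence for 117 of the 143 miRNAs, 35 by the deposited name and 82 by the arm usually meant where the name gives none. miR-21 was read as its 5p arm, at chr10:71902653-71902674 on the minus strand. The lines below show the miRNAs the results turn on, with the seed (bases 2 to 8) in capitals.
miR-21: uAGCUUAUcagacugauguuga
miR-340-5p: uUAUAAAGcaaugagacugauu
miR-340-3p: uCCGUCUCaguuacuuuauagcc
miR-199a-5p: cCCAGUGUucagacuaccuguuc
miR-199a-3p: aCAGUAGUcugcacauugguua
let-7a: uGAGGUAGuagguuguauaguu
let-7c: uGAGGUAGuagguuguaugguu
let-7f: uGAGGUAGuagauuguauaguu
The let-7 miRNAs shown share 1 seed, and the other 5 miRNAs each have a seed of their own, so neither miR-340-5p nor miR-199a-5p shares the seed of miR-21.

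Outside the seed the 2 called miRNAs each hold a stretch of miR-21. Of the 116 other miRNAs with a sequence, 4 share 7 or more consecutive bases with it, printed here with the shared run in capitals.
miR-340-5p: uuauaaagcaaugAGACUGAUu
miR-361: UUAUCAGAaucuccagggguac
miR-199a-5p: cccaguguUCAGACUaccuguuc
miR-499: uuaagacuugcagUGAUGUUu
The run of miR-340-5p (chr10:34894668-34894689, plus strand) covers its bases 14 to 21 and bases 10 to 17 of miR-21. That of miR-361 (chrX:82438506-82438527, minus strand) covers bases 1 to 8 and bases 5 to 12 of miR-21. In miR-199a-5p (chr13:77116255-77116277, plus strand) bases 9 to 15 match bases 8 to 14 of miR-21. The run of miR-499 (chr3:164570616-164570636, plus strand) is at bases 14 to 20 in both miRNAs.

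Of these 4 miRNAs, 2 were called lower, and their median difference was -0.32. Limited to runs at the same position in both miRNAs, the median was 0.080, the value of miR-499 alone. The 112 miRNAs with a shorter shared run had a median of 0.038, with 50 lower and 62 higher, and limma called 0 of them (8 had an unadjusted p under 0.05). miR-361, from an intron of the gene Chm, was at 9.17, 9.53 and 9.81 (lowest, median and highest) in AM21-treated rats and 9.30, 9.56 and 9.82 in controls, with a difference of -0.072 (adjusted p = 0.852). miR-499, which lies in the muscle myosin gene Myh7b, was at 8.24, 8.47 and 8.76 in AM21-treated rats and 7.83, 8.55 and 8.84 in controls, with a difference of 0.080 (adjusted p = 0.892). Of the 12 controls, 11 lay within the AM21-treated range for miR-361, and for miR-499 5 lay within it, 5 below and 2 above. The sign of miR-499 turned to -0.058 with the log10 total count as a covariate and to -0.0012 without the 2 low saline-injected EtOH rats. miR-743b, chosen after its values were seen, has no arm in its deposited name, and its 5p arm shares the run UCAGACUG with miR-21. Its difference was -0.30 (adjusted p = 0.746). The sequence of AM21 is not in the labels, and whether shared bases bear on the measured levels was not tested.

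**Figure D2:**
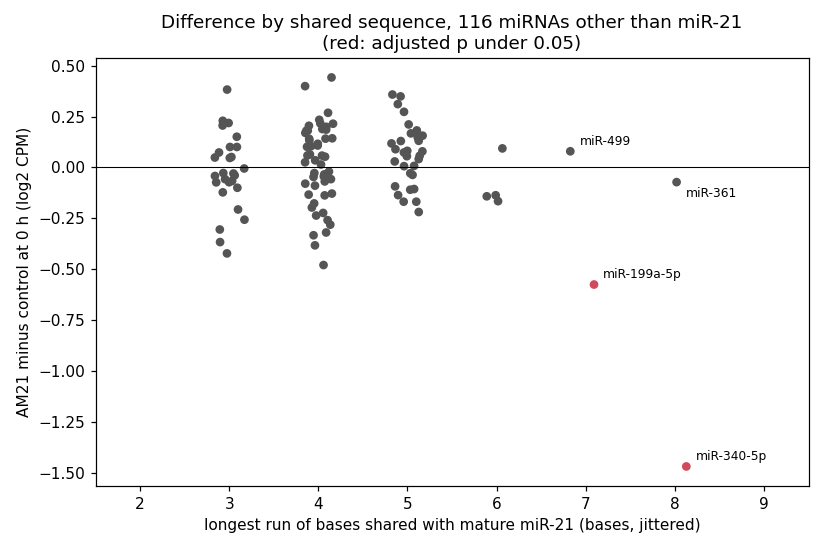
Difference between AM21-treated and control rats at 0 h in log2 CPM (vertical) by the longest run of bases each of 116 miRNAs shares with mature miR-21 (horizontal, points spread sideways). Red points have a limma adjusted p under 0.05. The 4 labelled miRNAs share 7 or 8 bases, and miR-340-5p at -1.47 and miR-199a-5p at -0.57 are the red ones.

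Because controls were of 2 kinds, the comparison was repeated against each. The comparisons share the 6 AM21-treated rats, and each control kind is also part of the pooled controls. Against untreated rats limma called 2 of 143 miRNAs (1.4%), miR-21 at -7.15 (standard error 0.55, adjusted p = 5.9e-09) and miR-340-5p at -1.53 (standard error 0.33, adjusted p = 0.0121). miR-199a-5p was at -0.44 (adjusted p = 0.152) and miR-199a-3p at -0.25 (adjusted p = 0.532). The 6 AM21-treated rats lay below all 6 untreated rats for miR-21 only (0.699% of miRNAs). In a fit of only the 12 animals compared, miR-340-5p against untreated kept its difference of -1.53 at an adjusted p of 0.0811, and over all 26 alternatives its adjusted p was 0.00032 to 0.0811. A fit of all 36 samples at 0 and 24 h called 6 miRNAs against untreated rats, with let-7f, miR-146a, miR-199a-5p and miR-365 added. Scaling to the 100 highest probes added let-7f.

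Against saline-injected rats, which had the same injection without the oligonucleotide, limma called 4 of 143 miRNAs (2.8%), all lower. miR-21 was at -5.23 (standard error 0.55, adjusted p = 1.2e-06) and miR-340-5p at -1.41 (standard error 0.33, adjusted p = 0.0139). miR-199a-5p was at -0.71 (standard error 0.13, adjusted p = 0.0017) and miR-199a-3p at -0.59 (standard error 0.12, adjusted p = 0.00557). For each of these 4, and for no other miRNA, all 6 AM21-treated rats lay below all 6 saline-injected rats (2.8% of miRNAs). Without the 2 low saline-injected EtOH rats, the difference of miR-21 from saline was -6.38 and the same 4 miRNAs were called. Without AM21-treated CHO replicate 3 limma called 5 miRNAs, with miR-628 added.

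The control kinds themselves were compared to show how far they lie apart. Between saline-injected and untreated rats limma called 0 of 143 miRNAs (0%), with 5 at an unadjusted p under 0.05. miR-21 was at -1.92 (standard error 0.55, adjusted p = 0.333), with 9.65, 13.30 and 14.10 as lowest, median and highest level with saline and 13.46, 14.66 and 15.00 untreated. Without the 2 low saline-injected EtOH rats this difference was -0.77. Without the remaining saline-injected EtOH rat, replicate 3, limma called 1 miRNA, miR-21, as did a fit of all 36 samples at 0 and 24 h. miR-199a-3p was at 0.34 (adjusted p = 0.843) and was the 1 miRNA (0.699%) for which all saline-injected rats lay above all untreated rats, and miR-199a-5p was at 0.28 (adjusted p = 0.908). miR-340-5p was at -0.12 between the control kinds.

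**Figure D3:**
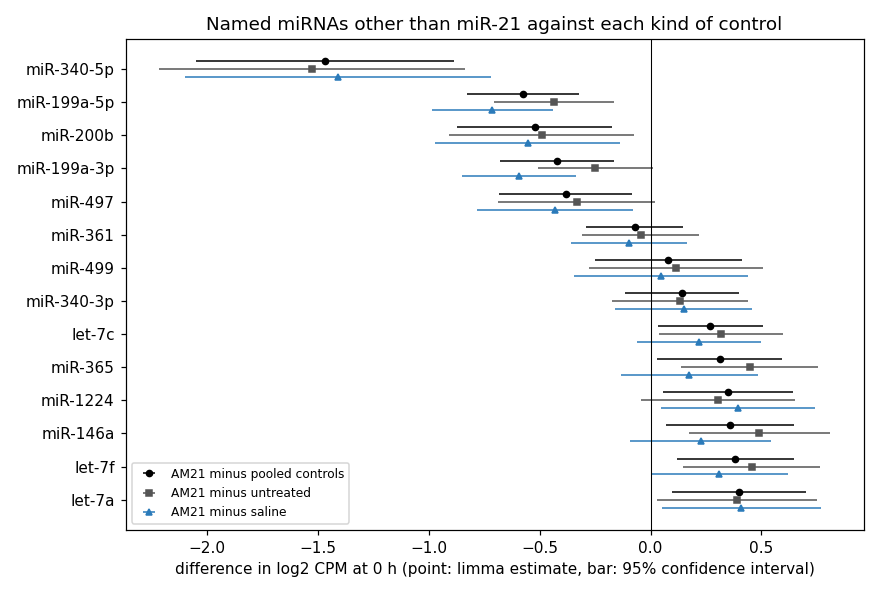
Difference in log2 CPM at 0 h between AM21-treated rats and pooled (black), untreated (grey) and saline-injected (blue) controls for 14 named miRNAs other than miR-21. Points are limma estimates and bars 95% confidence intervals. miR-340-5p was -1.47, -1.53 and -1.41 against the 3 sets of controls, and miR-199a-3p -0.42, -0.25 and -0.59.

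Each diet was also taken alone, with the spread of all 18 animals. In CHO rats limma called 1 of 143 miRNAs (0.699%), miR-21 at -6.45 (adjusted p = 8.0e-07), with miR-340-5p at -1.42 and miR-199a-5p at -0.49 (adjusted p = 0.177 for both). Without untreated CHO replicate 2 or AM21-treated CHO replicate 2, 2 miRNAs were called in CHO rats, miR-21 and miR-340-5p, and without saline-injected CHO replicate 3 the count was 3, with let-7a and miR-1224. Over the 18 single omissions miR-340-5p in CHO rats was at -1.94 to -0.78 (adjusted p = 0.0186 to 0.466), and the weakest value came without AM21-treated CHO replicate 3. In EtOH rats limma also called 1 miRNA (0.699%), miR-21 at -5.93 (adjusted p = 2.9e-06), with miR-199a-5p at -0.66 (adjusted p = 0.0575) and miR-340-5p at -1.51 (adjusted p = 0.0980). The count in EtOH rats was 2, with miR-199a-5p, without untreated CHO replicate 2 or saline-injected CHO replicate 2, which enter through the shared spread. It was 3, with miR-199a-5p and miR-340-5p, without replicate 2 or 3 of the AM21-treated CHO rats. With RLE factors or a minimum of 50 counts in 3 animals miR-199a-5p was added, and with only the 9 EtOH rats miR-340-5p was. Single omissions in EtOH rats gave adjusted p from 0.0199 to 0.477 for miR-340-5p and from 0.0389 to 0.308 for miR-199a-5p.

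The test of a difference between the diets called 0 of 143 miRNAs in limma (0%), with 4 at an unadjusted p under 0.05. For miR-21 the AM21 difference in EtOH rats minus that in CHO rats was 0.52 (95% confidence interval -1.31 to 2.36). For miR-340-5p it was -0.090 (95% confidence interval -1.34 to 1.16), and for miR-199a-5p -0.17 (95% confidence interval -0.65 to 0.32). The intervals for miR-21 and miR-340-5p are wide enough to hold a difference of 1 on the log2 scale between the diets, in either direction.

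The treatments were also compared in 18 livers taken 24 h after hepatectomy. The AM21-treated and saline-injected rats of this time had received another injection directly after surgery, of AM21 or of saline. Time, surgery and the added injection therefore cannot be told apart in what differs from 0 h. Whether the 0 h and 24 h livers came from the same rats is not stated. Fits across the times took all samples as separate animals, and the 24 h values are not taken as independent of those at 0 h. At 24 h limma called 4 of 143 miRNAs (2.8%). miR-21 was at -8.12 (standard error 0.14, adjusted p = 8.0e-23) and miR-340-5p at -1.41 (standard error 0.12, adjusted p = 3.4e-09), with the 6 AM21-treated rats below all 12 controls for both (1.4% of miRNAs). Without a measured background, the -8.12 is also a difference of measured values only. miR-361 was at -0.49 (adjusted p = 0.0336) and miR-1224 at 0.45 (adjusted p = 0.0348), beside -0.072 and 0.35 at 0 h. miR-199a-5p was at -0.44 (adjusted p = 0.135) and miR-199a-3p at -0.19 (adjusted p = 0.606).

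The calls of miR-361 and miR-1224 at 24 h lay near the threshold. For miR-361 the AM21-treated rats were at 8.84 to 9.20, and 10 of 12 controls lay above them. Over the 18 single omissions its difference stayed at -0.52 to -0.45 (adjusted p = 0.0148 to 0.101, called in 12), and that of miR-1224 at 0.35 to 0.52 (adjusted p = 0.0140 to 0.158, called in 9). Without untreated CHO replicate 1, saline-injected CHO replicate 2, AM21-treated EtOH replicate 2, AM21-treated CHO replicate 3 or untreated EtOH replicate 3 of 24 h, 2 miRNAs were called, miR-21 and miR-340-5p. Without AM21-treated CHO replicate 1 these 2 and miR-146a were called, and without saline-injected EtOH replicate 1 or 3, or untreated CHO replicate 3, they were called with miR-361. Without untreated EtOH replicate 1 the count was 5, with miR-199a-5p added. Control levels of miR-21 were 14.72 to 15.76 at 24 h and 9.65 to 15.00 at 0 h. AM21-treated rats were at 6.59 to 7.49 at 24 h and 6.65 to 7.76 at 0 h. The standard error of the AM21 difference was 0.14 at 24 h and 0.59 at 0 h. The test of a difference between the times called 0 of 143 miRNAs in limma (0%), with 4 at an unadjusted p under 0.05. The AM21 difference at 24 h minus that at 0 h was -1.93 for miR-21 (standard error 0.49, adjusted p = 0.0615), 0.054 for miR-340-5p, 0.14 for miR-199a-5p and -0.42 for miR-361. With no background measured and AM21-treated rats at similar low levels at both times, the -1.93 does not show a larger effect of AM21 at 24 h. Without AM21-treated EtOH replicate 1, or saline-injected EtOH replicate 2 or 3, of 0 h the count was 1, miR-21.

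Several let-7 miRNAs, which repress growth genes such as those of the Ras family, had higher values with AM21 without passing the test. let-7f was at 13.85, 13.87 and 14.15 (lowest, median and highest) in AM21-treated rats and 13.02, 13.55 and 13.95 in controls. Of the 12 controls, 10 lay below all 6 AM21-treated rats, and the exceptions were saline-injected EtOH replicate 2 and untreated EtOH replicate 3. Its difference was 0.38 (standard error 0.13, adjusted p = 0.161). let-7a was at 13.38 to 14.09 in AM21-treated rats and 12.73 to 13.67 in controls, with a difference of 0.40 (adjusted p = 0.251), and let-7c differed by 0.27 (adjusted p = 0.367). All 8 let-7 miRNAs measured, with miR-98, had differences above 0, with a median of 0.14 beside 0.035 for all miRNAs, and 0 of the 8 was called by limma. Within numbers 1, 2 and 3 the count above 0 was 8, 7 and 2, and within number 3 the median was -0.053. let-7a, let-7c and let-7f are the 3 with an unadjusted p under 0.05. In a fit of all 36 samples at 0 and 24 h, limma called 6 miRNAs at 0 h, with miR-199a-3p, let-7a and let-7f added to the 3. With log10 total count as a covariate it called 5, with miR-199a-3p and miR-139-5p added, with voom weights miR-199a-3p was added, and with scaling to the 100 highest probes let-7f was.

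The study names 5 miRNAs for AM21, and since it chose them on animals of this series, their direction is not independent evidence. Of the 5, 1 was called at 0 h (miR-340-5p), and the other 4 had differences above 0. miR-146a, which NF-κB induces and which restrains inflammatory signalling, was at 11.63, 11.82 and 12.22 (lowest, median and highest) in AM21-treated rats and 10.95, 11.52 and 11.85 in controls. The animals overlapped, and the difference was 0.36 (adjusted p = 0.269), or 0.49 against untreated and 0.23 against saline-injected rats. miR-1224 differed by 0.35 (adjusted p = 0.320), miR-365 by 0.31 (adjusted p = 0.381) and let-7a as above. Their median was 0.35.

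Besides miR-199a-3p, the lower values with an unadjusted p under 0.05 that did not pass were those of miR-200b and miR-497. miR-15b was at -0.48 with an unadjusted p of 0.0544 (adjusted p = 0.525). miR-200b, an epithelial miRNA that in liver marks the bile ducts, was at 7.70, 7.997 and 8.55 (lowest, median and highest) in AM21-treated rats and 8.10, 8.51 and 9.36 in controls. The animals overlapped, and the difference was -0.52 (adjusted p = 0.157). miR-497, a cell-cycle brake of the miR-15/16 family, was at 7.02, 7.88 and 8.34 in AM21-treated rats and 7.73, 8.18 and 8.48 in controls, with a difference of -0.38 (adjusted p = 0.266). Its 3 lowest values in AM21-treated rats, 7.86, 7.60 and 7.02, were those of the EtOH diet.

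Lists of miRNAs by cell type, or by the response of a cell type, were read by counts and medians beside the 143, of which 2.1% were called. For stellate, sinusoidal endothelial and Kupffer cells the lists hold only those signature members that the study marks as present in its data, and its remaining members were not read. The 3 hepatocyte miRNAs had a median of 0.14, with 2 above 0 (3 when scaled to the 100 highest probes) and 0 called, and the most abundant, miR-122, was at 18.80 to 19.35 in AM21-treated rats and 18.21 to 19.31 in controls (difference 0.22, adjusted p = 0.746). Their summed level was 490563 to 701217 CPM with AM21 and 332267 to 672603 in controls, which overlapped. Of 30 such miRNAs of sinusoidal endothelial cells, 25 were measured, with a median of -0.030 that turned to 0.017 when scaled to the 100 highest probes, and the 1 called was miR-199a-5p. Within numbers 1, 2 and 3 that median was 0.065, 0.064 and -0.067. The endothelial miRNA miR-126 was at 0.21 (adjusted p = 0.746), and at -0.17 within number 3. Of 7 such Kupffer cell miRNAs 5 were measured, with a median of -0.079 (0.065 within number 1) and 0 called. The study took them from changes in mouse Kupffer cells after hepatectomy, so their median does not measure the share of Kupffer cells. It also states that several listed miRNAs, particularly for stellate and Kupffer cells, are not restricted to the cells named.

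Of 6 leukocyte miRNAs 4 were measured, with a median of 0.026 (-0.082 within number 1) and 0 called by limma. Both measured red blood cell miRNAs, miR-451 and miR-144, were below 0 with a median of -0.15, which was -0.0056, 0.13 and -0.58 within numbers 1, 2 and 3, and both measured bile duct miRNAs, miR-200b and miR-429, with a median of -0.39, though 1 of them was above 0 within number 2. None of these 4 was called. Of the 16 miRNAs so marked as higher in activated stellate cells in culture, 14 were measured and 2 called lower, miR-21 and miR-199a-5p. Without miR-21 the other 13 had a median of -0.079, with 8 below 0. Within number 1 the 14, miR-21 included, were split into 7 below 0 and 7 above. Of the 23 so marked as lower in activated stellate cells, 21 were measured, with a median of 0.14, 16 above 0 and 0 called. This list holds all 3 hepatocyte miRNAs, and the medians of both lists are the value of 1 shared member, miR-192.

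Lists by family and function held no further call in limma. The miR-29 family, which represses collagens, had a median of 0.18 over 3 members (-0.072 within number 1). The 5 miRNAs of the miR-30 family were all above 0, with a median of 0.079, but only 2 of the 5 were within number 2 and 3 within number 3. The miR-15/16 family (5 measured) had a median of -0.034 and the miR-17 cluster with its paralogues (7 of 9 measured) a median of -0.047, and scaling to the 100 highest probes turned these to 0.013 and 0.00050. Within number 1 the median of the miR-15/16 family was 0.14. The inflammatory pair miR-146a and miR-146b had a median of 0.13 (-0.18 within number 3), and miR-34a and miR-210, linked to p53 and to hypoxia, a median of 0.0066 (-0.29, 0.32 and -0.0019 within numbers 1, 2 and 3).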

How the data were processed

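NanoString nCounter counts of liver miRNAs were scaled by the authors (TMM, edgeR 3.34.1) and transformed by voom (limma 3.48.3), and deposited as log2 CPM. Whole counts were recovered with voom's pseudocount of 0.5, each within 0.001 of a whole number. Differences were fitted on the deposited values of all 143 miRNAs in R 4.3.3 by limma 3.58.1 (lmFit, eBayes), two-sided, with diet as covariate, Benjamini-Hochberg adjustment and a threshold of 0.05. Omissions that left 2 animals in a group used the shared spread. Named miRNAs were miR-21, those called, up to 8 each way with the largest differences at an unadjusted p under 0.05, those the study names for AM21, sister arms, and those sharing 7 or more bases with miR-21. Members and lists were chosen with earlier results of these data known. The replicate number served as a block among the alternatives only. Alternatives were RLE factors, the 100 highest probes, at least 50 counts in 3 animals, voom weights, depth as covariate, other animals and single omissions. The limma fit of AM21 with diet was tested on simulated counts with known changes. Figures were drawn with matplotlib 3.10.9.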

Additional observations from a re-analysis of the deposited data

Results flagged for a closer look

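In groups of 6 animals, a highest or lowest value was singled out where its gap to the next value, divided by the group's whole range, exceeded 0.625. Over 54 groups and 18 quantities this picked out 2 values, and chance alone picks out about 1 in 20 groups. The miR-497 level of untreated EtOH replicate 3 was 7.73, below the next untreated rat at 8.11 and the highest at 8.30. The let-7f level of saline-injected EtOH replicate 2 was 13.92, above the next saline-injected rat at 13.64 and the lowest at 13.49. That rat is also one of the 2 saline-injected EtOH rats with low miR-21. The cause of either value was not tested.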

How the results depend on the processing

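miR-21, miR-340-5p and miR-199a-5p were called against pooled controls under all 28 alternatives tried. Counts of called miRNAs moved as follows, and the cause was not tested. Against pooled controls the 3 became 5 with log10 total count as a covariate and 6 in a fit of 36 samples. Against untreated rats the 2 became 6 with 36 samples and 1 with only the 12 animals compared. Saline against untreated went from 0 to 1 with 36 samples. In EtOH rats the 1 became 2 with RLE factors, with at least 50 counts in 3 animals (127 miRNAs tested), or with only the 9 rats of the diet. Deviations from the group means of animals with the same number correlated at over 0.1 in all 3 numbers for 2 of 15 pairs of groups. These were untreated CHO with untreated EtOH rats (0.52, 0.79 and 0.65) and with AM21-treated EtOH rats (0.32, 0.50 and 0.19). Over the 8 pairs of an AM21-treated and a control group the range was -0.41 to 0.50, so the numbers were not taken as pairs. The 2 pairs of groups above and the 11 of 18 animals closest to their own number go the other way. What animals of 1 number share was not tested. With the replicate number as a block, the counts were 3 against pooled controls, 2 against untreated, 4 against saline, 1 in each diet and 0 for both interactions. Single omissions gave 3 to 4 against pooled controls, 2 to 2 against untreated, 4 to 5 against saline, 0 to 1 for saline against untreated, 1 to 3 in CHO rats, 1 to 3 in EtOH rats, 0 to 0 for the diet interaction, 2 to 5 at 24 h and 0 to 1 for the time interaction. They gave -1.87 to -1.28 for the miR-340 arm difference and -0.25 to -0.073 for that of miR-199a. Limited to runs at the same position, the shared-sequence median of -0.32 became 0.080, the value of miR-499 alone. With labels permuted within diet and number, the exact p was 0.00274 for the miR-340 arm difference, 0.198 for that of miR-199a and 0.0631 for the total count. These permutations, the omission of 2 saline-injected EtOH rats together and single omissions at 24 h and across times were chosen after the data were seen. Among 831 alternatives for 31 values of single miRNAs, 2 turned sign (both miR-499, -0.058 and -0.0012), 1 lost its call (miR-340-5p against untreated) and 20 gained one. The median miRNA had a median of 89 counts and 41 had under 50, where counting error limits precision.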
